A study of Mus musculus with 12 samples.

Results

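The contractile unit of heart muscle, the sarcomere, is built from thin filaments of actin, tropomyosin and troponin, thick filaments of myosin with its light chains and binding protein C, and the giant protein titin that links them. Thin filaments and titin are anchored at the Z-disc, a scaffold around alpha-actinin, and thick filaments are tied together at the M-band. Intermediate filaments of desmin join neighbouring Z-discs, and chaperones and ubiquitin ligases fold, place and remove the parts. In the heart many of these genes are mutated in inherited cardiomyopathies, and their transcripts are among the most abundant of the tissue. The 34 genes described here code for such parts, and were taken as a fixed list of mouse symbols matched to the gene identifiers of the table. All 34 were found among 55401 rows.

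The genes were measured by bulk RNA sequencing in 12 libraries, made from hearts of the inbred strain C57BL/6J, all wild type (WT). There were 4 groups of 3 libraries: sedentary females, exercised females, sedentary males and exercised males. Exercise meant treadmill running in daily sessions of 45 min, at a speed of 1 km/h and with 5 sessions weekly, kept up for 6 weeks. Sedentary controls of like age were left in their cages. The age itself, the part of the heart taken and any batch were not given in the sources used here. The question was what moderate endurance exercise does to the heart's transcripts in each sex. Libraries are numbered within each group in the order of their records, and since nothing in the labels ties a library to a single animal, the p-values measure the spread between libraries.

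Each library held 22204349 to 32566240 counts. Rows of the mitochondrial genome held 27.3% of the counts in female sedentary 2 and 0 in the other 11 libraries. Levels are given as CPM, a gene's counts relative to the summed counts of the 16213 genes that passed the filter on low counts, which left out the mitochondrial rows. They were scaled by the TMM method (trimmed mean of M-values), a factor per library that assumes most genes do not differ. These factors were 1.00 to 1.08 in females and 0.943 to 0.997 in males. The 6 markers of heart muscle, such as Myh6 and Ryr2, summed to 43722 to 53456 CPM in the 12 libraries, and the 10 markers of fast skeletal muscle to 2.96 to 5.12 CPM, with 1 of them at 0 throughout. The 5 atrial markers summed to 202 and 76.9 CPM in female sedentary 1 and 2, to 303 CPM in female exercised 2, to 7.0 to 23.8 CPM in the other females and to 3.38 to 6.35 CPM in the males. Myl7, Sln, Myl4 and Dkk3 were each highest in female exercised 2 and female sedentary 1 and 2. Bmp10 did not follow them: it was at most 0.151 CPM, in female exercised 3, and 0 in female sedentary 1 and 2. The 2 markers of ventricular muscle summed to 27.9 to 42.4 CPM with overlap between all groups. The sum of 5 red cell markers was 3630 and 1747 CPM in female sedentary 1 and 2, 293 CPM in female exercised 2 and at most 86.2 CPM elsewhere. Sex differences of the called genes, and of those nearest to a call, are therefore given with and without the 3 libraries in which Myl7, the atrial myosin light chain, exceeded 10 CPM: female sedentary 1 and 2 and female exercised 2.

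Together the 34 genes took up 6.67% to 7.24% of the counts outside the mitochondrial genome in each library. By group this share was 6.87% ± 0.0285 in sedentary females, 6.89% ± 0.257 in exercised females, 7.07% ± 0.155 in sedentary males and 6.92% ± 0.292 in exercised males (SD, n = 3 each), and only the sedentary groups did not overlap. Of the 100 genes of highest mean CPM, 16 were members. The median member stood at 860 CPM and the median of all genes tested at 11.8 CPM. In bulk tissue, fewer muscle cells and less RNA per muscle cell cannot be told apart.

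Divided by the length of their exons, the members spanned from 6397 to 0.0565 CPM per kb. Actc1, the cardiac alpha-actin of the thin filament, had the highest level at 6397 ± 364 CPM per kb (SD over 12 libraries), above the spread of the next gene by this length. Myl2 and Myl3, the regulatory and essential light chains of ventricular myosin, followed at 3152 ± 188 and 2287 ± 198 CPM per kb. Tnnc1, the calcium-binding subunit of troponin, and Tnni3, its inhibitory subunit, came next at 1810 ± 121 and 1531 ± 80.0 CPM per kb. Divided by the longest transcript in place of all exons, Actc1 and Myl2 stood at 7027 and 6913 CPM per kb, a gap within their spread. By that length Tnni3 at 3462, Tpm1 at 2870 and Tnnt2 at 2667 CPM per kb stood above Tnnc1 at 2613 CPM per kb, so the order below Myl3 depends on the length used. Tcap, which caps titin at the Z-disc, Tpm1, tropomyosin, Tnnt2, cardiac troponin T, and Mybpc3, cardiac myosin-binding protein C, stood by exon length at 1392 ± 304, 1279 ± 97.7, 1146 ± 98.7 and 1111 ± 123 CPM per kb, and neighbours among these 4 did not differ beyond their spread.

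The 7 thin filament genes held 48.6% of the members' counts and the 3 thick filament genes 22.2%. Myosin heavy chains are not among the members, and Myh6 alone stood at 25525 to 30969 CPM, so these shares do not compare the whole filaments. The 11 Z-disc genes took 10.8%, titin and the M-band genes 10.4%, the 3 genes of the periphery 4.23%, and the 4 of assembly, turnover and signalling 3.62%. Ttn, whose exons sum to 116825 bases, stood at 3965 CPM but at only 33.9 ± 2.79 CPM per kb. Nebl, nebulette, and Obsl1, a cytoskeletal adaptor related to obscurin, were the lowest members that are not skeletal isoforms, at 12.5 ± 1.49 and 11.9 ± 1.38 CPM per kb. Those 2 did not differ beyond their spread.

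**Figure D1:**
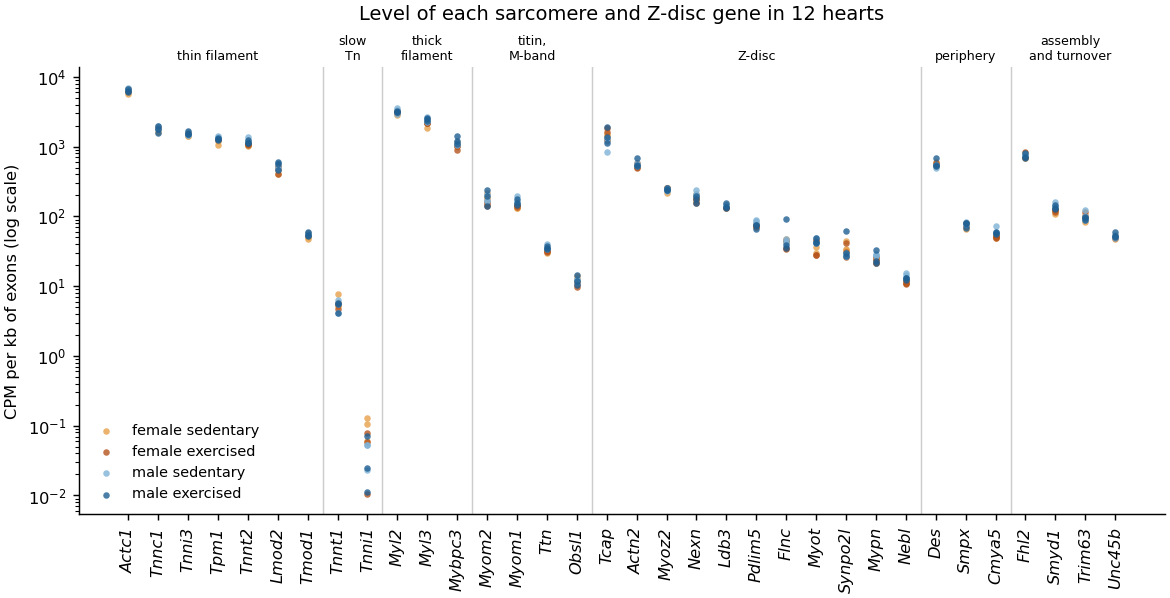
Level of each of the 34 genes in each of 12 libraries, in CPM per kb of exons on a log axis; a point is 1 library, coloured by group, and grey lines part the roles named above the plot. Most genes span a narrow band, and Tnnt1 and Tnni1 (slow Tn) lie below all others.

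Actc1 was measured at 9766, 10058 and 9322 CPM in sedentary females, 10802, 10756 and 10168 in exercised females, 11336, 10812 and 10397 in sedentary males and 10119, 10926 and 9750.3 in exercised males. The 3 sedentary females lay below the exercised females and the sedentary males without overlap, and overlapped with the exercised males. Myl2 was at 5875, 5457 and 6338 CPM in sedentary females, 6285, 6279.8 and 5829 in exercised females, 6435, 5811 and 6874 in sedentary males and 6315, 6106 and 6147 in exercised males, with overlap between all groups. For Myl3 the values were 4496, 3828 and 4564 CPM in sedentary females, 4481, 4484 and 4431 in exercised females, 4762, 4668 and 5359 in sedentary males and 4755, 5201 and 5059 in exercised males, and all 6 females lay below all 6 males, with female sedentary 2 the lowest. Tnnc1 stood at 1914, 1687 and 1996 CPM in sedentary females, 1944, 1945 and 1855 in exercised females, 1841, 1857 and 2026 in sedentary males and 1633, 2049.7 and 1862 in exercised males, again with overlap between all groups.

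Troponin I and troponin T each exist as a cardiac and a slow skeletal form, and the slow troponin I is that of the fetal heart. Tnni3, the cardiac inhibitory subunit, was at 2948, 2899 and 3199.9 CPM in sedentary females, 3223, 3162 and 3143 in exercised females, 3069, 3058 and 3345 in sedentary males and 3517, 3158 and 3169.9 in exercised males. Tnni1, its slow skeletal form, had 1 to 12 counts per library and fell under the filter on low counts, so it was not tested. It made up 0.00114% to 0.0163% of the troponin I counts, or 0.377, 0.471 and 0.221 CPM in sedentary females, 0.208, 0.280 and 0.0377 in exercised females, 0.189, 0.0846 and 0.189 in sedentary males and 0.0402, 0.0900 and 0.256 in exercised males. The 3 highest values of Tnni1 were those of the 3 libraries with Myl7 above 10 CPM, and the part of atrial tissue in them was not tested. Tnnt2, cardiac troponin T, stood at 8188, 7825 and 8630.4 CPM in sedentary females, 8881, 8369 and 8275 in exercised females, 9421, 9252 and 10629 in sedentary males and 8796, 9663 and 8655 in exercised males. Sedentary females lay below sedentary males without overlap. Tnnt1, the slow skeletal form, was at 12.02, 11.4 and 16.9 CPM in sedentary females, 12.8, 10.4 and 12.4 in exercised females, 12.4, 14.2 and 9.16 in sedentary males and 9.24, 12.2 and 12.5 in exercised males, which is 0.0862% to 0.196% of the troponin T counts, and its groups overlapped. Tnni1 and Tnnt2 are neighbours on chromosome 1, and Tnnt1 and Tnni3 on chromosome 7, so each slow form lies beside a cardiac gene of the other subunit.

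Lmod2, Myoz2, Smpx, Unc45b, Trim63 and Fhl2 had narrower ranges over the 12 libraries than Tcap, which spanned 786 to 1828 CPM. In the thin filament Lmod2, leiomodin, which lengthens the filament, spanned 789 to 1196 CPM. At the Z-disc Myoz2, a calsarcin that binds calcineurin, spanned 730.1 to 882 CPM. Smpx, a small muscle protein of the periphery on the X chromosome, lay at 151 to 192 CPM. Among the genes of assembly, turnover and signalling, Unc45b, a myosin chaperone, lay at 212 to 266 CPM, Trim63, a ubiquitin ligase that marks sarcomere proteins for breakdown, at 235 to 351 CPM, and Fhl2, a LIM protein bound to titin, at 1294 to 1569.9 CPM. None of these genes, Tcap included, passed the main test in any contrast.

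Promoters of muscle genes are known for sites of serum response factor (the CArG box) and of the MEF2 factors. RefSeq windows of GRCm38.p6, from 250 bases before to 50 bases after a start, were given for 30 of the 34 genes, in 41 windows, and were searched on both strands. The CArG box was found in 8 of the 41 windows (19.5%), against 1.63% of all 32851 windows. These belonged to 6 genes, Actc1, Myl3, Ldb3, Nebl, Myom1 and Fhl2. The MEF2 site was found in 6 windows (14.6%, against 3.19% of all), of Ttn, Mybpc3, Myoz2, Synpo2l and Fhl2. Of the shorter motifs, CATTCC (the MCAT element) was found in 26.8% against 14.7%, AGATAA (the motif of GATA factors) in 19.5% against 11.2%, TATAAA in 19.5% against 13.6% and CANNTG (the E-box) in 78.0% against 72.3%. A match is a description of the letters and not a site in use. Alternative starts of a gene share bases, and the CArG box of Ldb3 was counted in 2 overlapping windows. The stretches below, on the strand of each gene, show the match in capitals with 20 bases on either side, first for the CArG box of 2 of the highest members, of a Z-disc gene and of the 2 members with a match that passed the test between the sexes, then for the MEF2 site of 2 filament genes.
Actc1 CArG box, chr2:114052893-114052942, minus strand: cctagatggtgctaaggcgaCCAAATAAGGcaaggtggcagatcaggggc
Myl3 CArG box, chr9:110763573-110763622, plus strand: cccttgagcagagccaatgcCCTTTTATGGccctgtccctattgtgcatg
Ldb3 CArG box, chr14:34588687-34588736, minus strand: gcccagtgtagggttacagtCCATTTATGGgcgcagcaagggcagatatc
Nebl CArG box, chr2:17462989-17463038, minus strand: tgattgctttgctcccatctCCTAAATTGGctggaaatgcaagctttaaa
Myom1 CArG box, chr17:71019438-71019487, plus strand: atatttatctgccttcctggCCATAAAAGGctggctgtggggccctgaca
Ttn MEF2 site, chr2:76982684-76982733, minus strand: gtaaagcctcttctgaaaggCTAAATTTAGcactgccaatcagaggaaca
Mybpc3 MEF2 site, chr2:91118034-91118083, plus strand: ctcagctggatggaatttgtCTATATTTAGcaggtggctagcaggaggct
The stretch of Actc1 lies 47 bases before a start on chromosome 2 and that of Myl3 85 bases before a start on chromosome 9. Those of Nebl and Myom1 lie 162 and 99 bases before alternative starts, on chromosomes 2 and 17. These 4 stretches fall in introns of longer transcripts in the GENCODE annotation. The stretch of Ldb3 lies 35 bases before a start on chromosome 14, and those of Ttn and Mybpc3 166 and 90 bases before starts on chromosome 2. All 3 are outside annotated genes.

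In females no sarcomere gene was called between exercised and sedentary hearts: 0 of 33 tested members passed at an adjusted p of 0.05 in edgeR's quasi-likelihood test, adjusted by Benjamini-Hochberg over 16213 genes. None of the 16213 genes did (0%). By DESeq2 and by limma's voom 0 members passed as well. At an unadjusted p under 0.05 there were 2 members above 0, where 1.89% of all genes were, and 1 below, where 2.04% were. Between exercised and sedentary females 4 members were higher and 3 lower without overlap, where 5.42% and 4.37% of all genes were. They were Actc1, Tpm1, Tmod1 and Fhl2, and Mybpc3, Myom2 and Obsl1. The members' median log2 difference was 0.03, with 19 above and 14 below 0 (15 and 18 when scaled by total counts), and the median of all genes was 0.00. Without the 3 libraries with Myl7 above 10 CPM the members' median was -0.03. Of the marker lists, that of macrophages summed to 158 to 172 CPM in exercised and 122 to 156 CPM in sedentary females without overlap, and its part was not tested. In that list Cd68 and Lyve1 were higher without overlap, and C1qa, Csf1r and Adgre1 overlapped.

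All 7 thin filament members lay above 0 in females, with a median of 0.07, as did the 4 genes of assembly, turnover and signalling, with a median of 0.09 (6 of 7 and 3 of 4 when scaled by total counts), but none of the 11 passed. Tpm1, the tropomyosin that blocks or frees the myosin sites on actin, stood at 7696, 6749 and 8095 CPM in sedentary females, 8413, 8428 and 8284 in exercised females, 8929, 8443 and 9241 in sedentary males and 8768, 8081 and 8400.1 in exercised males. The 3 exercised females lay above the 3 sedentary ones, with female sedentary 2 lowest of all libraries, a log2 difference of 0.16 ± 0.07 (SE), or 0.08 without female sedentary 2. Tmod1, tropomodulin, which caps the slow end of the thin filament, was at 205, 199 and 188 CPM in sedentary females, 214, 230.0 and 211 in exercised females, 223, 216 and 229.9 in sedentary males and 233, 216 and 208 in exercised males. Exercised females lay above sedentary females without overlap, by 0.15 ± 0.07, and reached the range of the males. Actc1 differed by 0.12 ± 0.06, also without overlap. Reads of Tmod1 are uncertain, since Tstd2 on the other strand overlaps 32.6% of its exon bases and the strand setting of the counting was not given.

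On the other side, 3 of the 4 titin and M-band members lay below 0 in females, with a median of -0.14. Obsl1, which links the M-band to the surrounding cytoskeleton, was at 108, 117 and 100.1 CPM in sedentary females, 82.5, 96.2 and 91.2 in exercised females, 105, 108 and 95.2 in sedentary males and 100.4, 123 and 87.6 in exercised males. The 3 exercised females were below the 3 sedentary ones, by -0.27 ± 0.11. Myom2, an M-band protein that crosslinks thick filaments, differed by -0.36 ± 0.16 without overlap. Mybpc3, which regulates the reach of myosin heads, stood at 4353, 4891 and 4717 CPM in sedentary females, 3770.3, 4272 and 4297 in exercised females, 4486, 4421 and 4932 in sedentary males and 4536, 5847 and 4988 in exercised males. The 3 exercised females were the lowest of all 12 libraries, and the difference from sedentary females was -0.18 ± 0.09. Each of these had an adjusted p of 1.00 by edgeR's test.

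Exercise in males gave the same count, 0 of 33 members and 0% of all genes by edgeR's test, and 0 members by DESeq2 and voom. At an unadjusted p under 0.05 there were 3 members, all below 0, where 3.6% of all genes were. Without overlap 2 members were lower, where 6.16% of all genes were, and 0 higher. The members' median was -0.03, with 14 above and 19 below 0, and that of all genes 0.00. Markers of smooth muscle summed to 63.8 to 85.7 CPM in exercised and 103 to 129.8 CPM in sedentary males, and those of endothelium to 904 to 961 and 859.6 to 872 CPM. Neither sum overlapped, and their part was not tested. Of smooth muscle, Myh11, Cnn1 and Acta2 were lower in exercised males without overlap, and Tagln overlapped. Of endothelium, Cdh5 and Tie1 were higher without overlap, and Pecam1, Kdr and Egfl7 overlapped. Pdlim5, a PDZ and LIM protein that binds alpha-actinin at the Z-disc, was at 655, 661 and 657 CPM in sedentary females, 696, 652 and 624 in exercised females, 708, 775 and 787 in sedentary males and 594, 663 and 669.9 in exercised males. Exercised males lay below sedentary males without overlap and overlapped with the females, a log2 difference of -0.24 ± 0.07 with an adjusted p of 0.588 by edgeR's test. Nexn, nexilin, an actin-binding Z-disc protein, stood at 697, 646 and 799 CPM in sedentary females, 739.9, 605 and 691 in exercised females, 801, 783 and 928 in sedentary males and 594, 673 and 759 in exercised males. Exercised males were again below sedentary ones without overlap, by -0.31 ± 0.11 (adjusted p of 0.615). Nebl, nebulette, which ties the ends of thin filaments to the Z-disc, differed by -0.17 ± 0.08, and the groups overlapped.

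The test of whether the exercise effect differed between the sexes called 0 of 33 members and 0% of all genes with edgeR, and 0 members with DESeq2 and voom. At an unadjusted p under 0.05 there were 4 members, where 4.74% of all genes reached it. Females minus males, the effect on Mybpc3 differed by -0.33 ± 0.13, on Pdlim5 by 0.24 ± 0.10, on Tpm1 by 0.23 ± 0.10 and on Actc1 by 0.20 ± 0.09, each with an adjusted p of 0.930. Averaged over both sexes, exercise again called 0 members (0% of all genes). At an unadjusted p under 0.05 there were 2, both below 0, where 2.78% of all genes were. Those 2 were Nexn at -0.19 ± 0.08 and Pdlim5 at -0.12 ± 0.05 (adjusted p of 0.782 for both), and Obsl1 followed at -0.13 ± 0.08, with -0.08 without male exercised 3 and -0.20 without male exercised 2.

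The size of change these libraries can hide is set by the spread. The median standard error of a member's exercise effect was 0.08 in either sex, against 0.14 over all genes. The 95% interval lay within 0.3 of 0 on the log2 scale for 22 of 33 members in females and 16 in males, and within 0.5 for 27 and 29. The widest intervals were those of Flnc, filamin C, from -1.01 to 0.46 in females and -0.41 to 1.06 in males, and of Synpo2l, from -0.87 to 0.51 and -0.18 to 1.21.

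**Figure D2:**
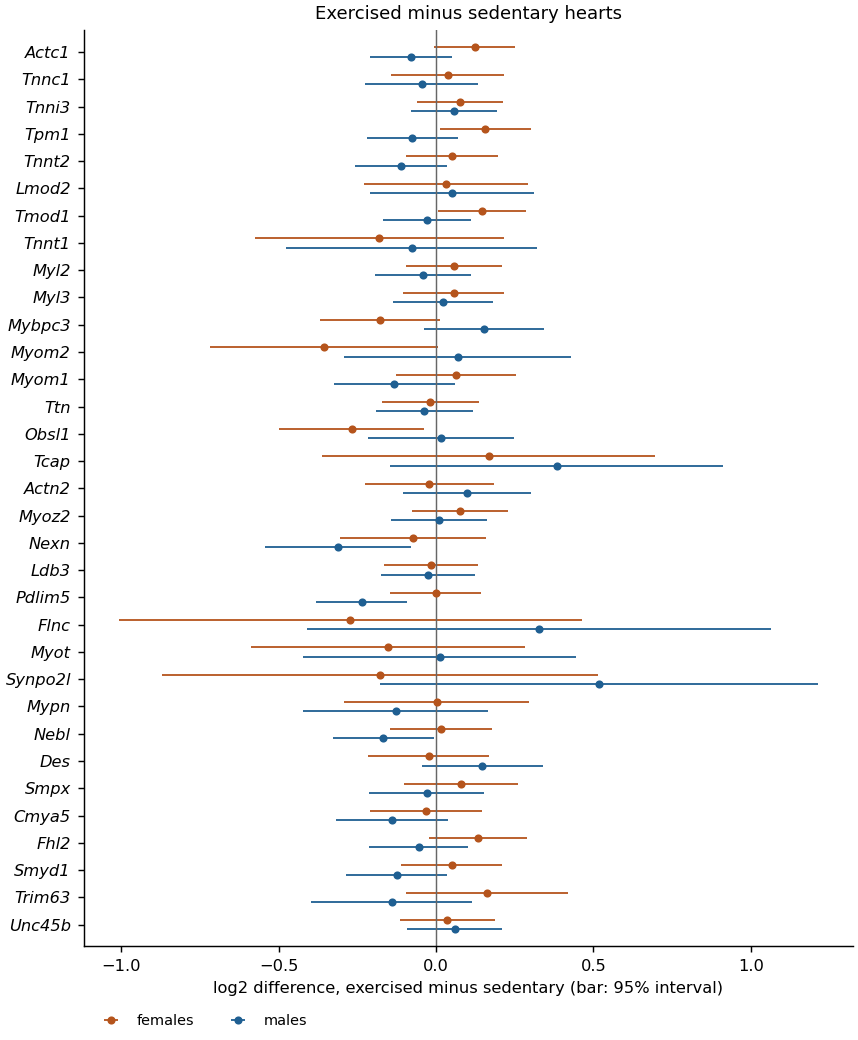
Log2 difference between exercised and sedentary hearts for 33 members in females and in males, by role from thin filament (top) to assembly and turnover (bottom); points are estimates and bars their 95% intervals. No member passed the test in either sex, and the bars of Flnc, Synpo2l and Tcap are the longest.

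Between the sexes most members lay lower in females, 27 of 33 on average over both states, but 18 of 33 when scaled by total counts. In sedentary hearts 2 of 33 members passed edgeR's test, both lower in females, where 2.21% of all 16213 genes passed and 1.36% passed lower. Of the members 25 lay below 0 with a median of -0.16, while 47.6% of all genes lay below 0 with a median of 0.01. Without overlap 13 members were lower and 1 higher in females, where 12.8% of all genes were lower and 12.2% higher without overlap. Averaged over sedentary and exercised hearts 4 members passed, all lower in females (5.05% of all genes passed, and 2.89% lower) and the median was -0.09, where 47.2% of all genes lay below 0. In exercised hearts 0 passed, by edgeR, DESeq2 or voom (0.16% of all genes by edgeR), with 5 members lower at an unadjusted p under 0.05, where 5% of all genes were. There 23 lay below 0 with a median of -0.08, where 49.2% of all genes lay below 0. Lower without overlap were 5 members, Myl3, Mybpc3, Ttn, Cmya5 and Smyd1, where 7.54% of all genes were. Scaled by total counts, a setting chosen after seeing the data, the median of all genes moved to 0.11, 0.07 and 0.09 in sedentary, exercised and averaged hearts, that of the members to -0.06, -0.01 and -0.004, and 19, 18 and 18 members lay below 0. The members' median thus lay under that of all genes by 0.17 in sedentary, 0.08 in exercised and 0.10 in averaged hearts with either scaling. A change of scaling shifts all genes nearly alike, so this gap could hardly differ between scalings and is no check of the result. The 4 calls ended with scaling by total counts. With it, 80.9% of the genes called in sedentary hearts were higher in females, against 38.5% with the trimmed mean, and 85.9% against 42.8% on average.

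The sums of several marker lists moved with sex as well. Markers of heart muscle summed to 43722 to 47934 CPM in sedentary females, below the 48076 to 51837 CPM of sedentary males. In exercised hearts they overlapped, at 47101 to 48384 and 45794 to 53456 CPM. Most of this sum was Myh6 and Atp2a2, and its markers did not move alike. In sedentary females Ryr2, Atp2a2 and Hrc were lower without overlap, and Myh6 and Pln overlapped with males. Nkx2-5 was higher without overlap (71.7 to 77.5 and 47.7 to 70.6 CPM). Fibroblast markers summed to 773 to 857 CPM in sedentary females and 719 to 749.8 CPM in sedentary males without overlap. Of these, Col1a1 and Lum were higher in sedentary females without overlap, and Col1a2, Dcn and Pdgfra overlapped. Markers of fast skeletal muscle, all low, summed to 3.36 to 3.92 and 2.96 to 3.35 CPM. In exercised hearts the markers of smooth muscle summed higher in females without overlap (139.7 to 221 CPM in females, 63.8 to 85.7 CPM in males). So did those of macrophages (158 to 172 and 117 to 150.4 CPM), while those of endothelium summed lower (809 to 898 and 904 to 961 CPM). Not every marker there followed its sum. Of endothelium, Pecam1 was higher in exercised females without overlap (195.2 to 224.7 and 190.2 to 194.6 CPM). Tie1 and Kdr were lower, and Cdh5 and Egfl7 overlapped. Of macrophages, C1qa and Lyve1 were higher, and Cd68, Csf1r and Adgre1 overlapped. Of smooth muscle, Myh11, Cnn1 and Acta2 were higher and Tagln overlapped. The part of all these markers in the sex differences was not tested. Without the 3 libraries with Myl7 above 10 CPM, 22 members lay below 0 in sedentary, 26 in exercised and 28 in averaged hearts, with medians of -0.11, -0.08 and -0.11.

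Nebl, nebulette, was at 168, 168 and 179.9 CPM in sedentary females, 164, 170.4 and 187 in exercised females, 222, 201 and 236 in sedentary males and 199.7, 185 and 201 in exercised males. Every female library lay below every sedentary male, and 2 of the 3 exercised males lay above all females. The log2 difference was -0.35 ± 0.08 in sedentary hearts (adjusted p of 0.0294 by edgeR's test), -0.17 ± 0.08 in exercised hearts (0.479) and -0.26 ± 0.05 on average (0.0136), or -16.5%. Smyd1, a muscle methyltransferase that acts with chaperones in the folding of myosin, stood at 535, 572 and 497 CPM in sedentary females, 556, 574 and 531 in exercised females, 633, 650.5 and 736 in sedentary males and 655, 608 and 588 in exercised males. All 6 females lay below all 6 males. The difference was -0.33 ± 0.08 in sedentary hearts (adjusted p of 0.0376 by edgeR's test) and -0.24 ± 0.05 on average (0.0182).

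Cmya5, myospryn, a large protein at the edge of the Z-disc that binds desmin and alpha-actinin, was at 645, 589 and 603 CPM in sedentary females, 577, 624 and 597 in exercised females, 686, 705 and 872 in sedentary males and 657, 695 and 701 in exercised males. All 6 females were again below all 6 males, with male sedentary 3 the highest. It differed by -0.30 ± 0.08 in sedentary hearts (adjusted p of 0.0786 by edgeR's test), or -0.18 without male sedentary 3, and -0.25 ± 0.06 on average (0.0285). An antisense gene overlaps 20.7% of its exon bases, so part of its reads may belong to that gene. Myom1, myomesin, which crosslinks thick filaments at the M-band, stood at 1519.8, 1383 and 1365 CPM in sedentary females, 1424, 1532 and 1504 in exercised females, 1638, 1749 and 2080.2 in sedentary males and 1519.8, 1829 and 1636 in exercised males. Sedentary females lay below sedentary males, while exercised females and males overlapped. Its difference was -0.36 ± 0.09 in sedentary hearts (adjusted p of 0.0555) and -0.26 ± 0.06 on average (adjusted p of 0.0317 by edgeR's test).

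In GRCm38, by the GENCODE annotation, the 4 genes lie apart: Nebl at chr2:17343909-17731464, minus strand, Smyd1 at chr6:71213940-71322233, minus strand, Cmya5 at chr13:93040713-93144724, minus strand, and Myom1 at chr17:71002633-71126856, plus strand. The deposited table holds 1 count per gene and library, so isoforms, such as those from the alternative starts of Nebl and Myom1, were not separated.

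**Figure D3:**
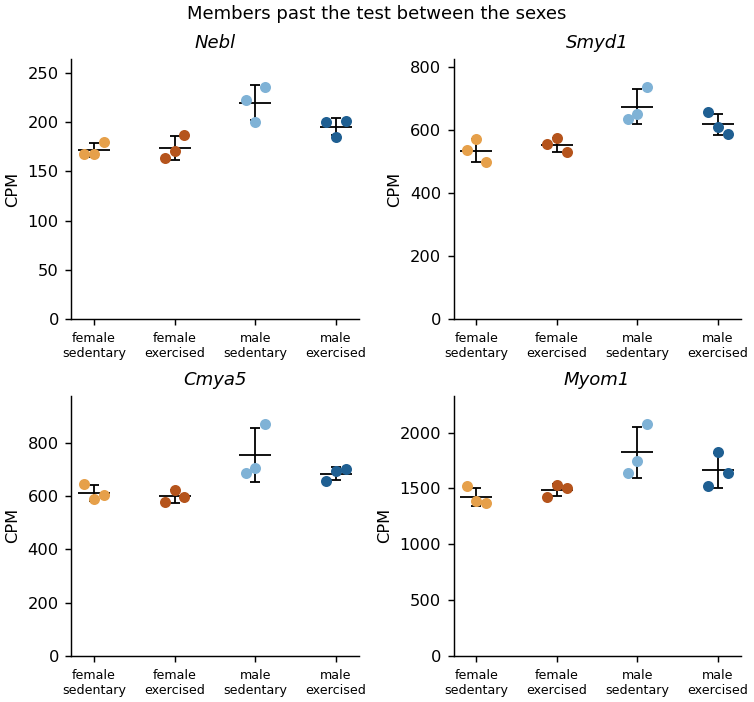
CPM of Nebl, Smyd1, Cmya5 and Myom1 in each of 12 libraries by group; points are libraries and black bars the group mean ± SD (n = 3). Smyd1 and Cmya5 are lower in all 6 females than in all 6 males, and the sedentary males are the highest group for each gene.

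These calls depended on which libraries and scaling entered, and that of Myom1 also on the filter. With no filter and a bias-adjusted test, Myom1 differed by -0.26 ± 0.07 on average and did not pass (adjusted p of 0.0904 by edgeR's test). In the 9 libraries with Myl7 up to 10 CPM, where female sedentary 3 is the only sedentary female, the average differences were -0.22 ± 0.08 for Nebl, -0.31 ± 0.07 for Smyd1, -0.27 ± 0.08 for Cmya5 and -0.30 ± 0.09 for Myom1, and none of the 4 passed (adjusted p of 0.193, 0.0741, 0.142 and 0.132 by edgeR's test). With the mean of the atrial markers as a covariate, Smyd1 passed on average (-0.32 ± 0.07, adjusted p of 0.0489) and the other 3 did not, at -0.21 ± 0.07 for Nebl, -0.29 ± 0.08 for Cmya5 and -0.31 ± 0.09 for Myom1 (adjusted p of 0.173, 0.106 and 0.109). In both of these fits the differences of Smyd1, Cmya5 and Myom1 were larger than in the main test and that of Nebl smaller, while all 4 standard errors were larger. Scaled by total counts, the averages were -0.18 ± 0.05, -0.16 ± 0.05, -0.16 ± 0.05 and -0.17 ± 0.06 (adjusted p of 0.0528, 0.0843, 0.0813 and 0.0851). With 1 library left out in turn, Nebl and Smyd1 passed on average in all 12 fits, Cmya5 in 7 and Myom1 in 4. In sedentary hearts Nebl passed in 7 of these 12 and Smyd1 in 4, and neither passed without any 1 of the 3 sedentary females or without male sedentary 1 or 3. Smyd1 was also lost there without male sedentary 2 and without female exercised 1 or 2, and Myom1 passed without male exercised 1 or 2.

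Myot, myotilin, which crosslinks actin at the Z-disc, was singled out after its values were seen. It stood at 101, 81.3 and 66.6 CPM in sedentary females, 61.6, 100.1 and 62.6 in exercised females, 94.1, 109 and 92.5 in sedentary males and 92.6, 109.7 and 95.4 in exercised males. The 3 female libraries with high atrial markers had the 3 highest female values, 101, 81.3 and 100.1 CPM, and the other 3 females, at 61.6 to 66.6 CPM, were below every male. With all libraries it did not pass (average log2 difference of -0.33 ± 0.14, adjusted p of 0.207 by edgeR's test). Without those 3 libraries, which leaves female sedentary 3 as the only sedentary female, the difference was -0.62 ± 0.08 on average and -0.68 ± 0.10 in exercised hearts. Leaving out the 3 highest female values must widen the difference, so these values are no separate support for it. With the atrial covariate Myot passed on average, at -0.72 ± 0.09 (adjusted p of 0.00166 by edgeR's test). It also passed on average without female exercised 2 alone (-0.46 ± 0.10, adjusted p of 0.0286). Both settings adjust for, or leave out, libraries in which Myot had been seen to be high. The passes with the covariate and without female exercised 2 are therefore no separate support either.

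Among the other members, in sedentary hearts Tnnt2 differed by -0.25 ± 0.07 and Tpm1 by -0.24 ± 0.07 (adjusted p of 0.0765 and 0.0825 by edgeR's test). Without the 3 libraries with Myl7 above 10 CPM they differed by -0.18 ± 0.11 and -0.13 ± 0.10. Both passed by DESeq2 on all libraries, as did Myom1 and Cmya5. The 7 thin filament members all lay below 0 in sedentary hearts (5 of 7 when scaled by total counts), with Tnnc1 nearest to 0 at -0.03 ± 0.08. In exercised hearts the smallest p was that of Mybpc3, at -0.32 ± 0.09 (adjusted p of 0.232), with the 3 exercised females below the 3 exercised males, while in sedentary hearts it stood at 0.01 ± 0.09. The value in exercised hearts was -0.35 ± 0.11 without the 3 libraries with Myl7 above 10 CPM and -0.21 without male exercised 2. For the 4 called genes, the sex difference in exercised minus that in sedentary hearts was 0.18 ± 0.11 for Nebl, 0.17 ± 0.11 for Smyd1, 0.11 ± 0.12 for Cmya5 and 0.20 ± 0.13 for Myom1, with adjusted p from 0.930 to 0.945 by edgeR's test. Without male sedentary 3 they were 0.11 for Smyd1, -0.00668 for Cmya5 and 0.09 for Myom1. The widest of their 95% intervals, that of Myom1, ran from -0.07 to 0.47, so the sex difference was not shown to vary with exercise. Members above 0 on average were Tcap at 0.20 ± 0.17, Tnnt1 at 0.12 ± 0.13, Synpo2l at 0.06 ± 0.22 and, at 0.01, Des, Tnnc1 and Myoz2, none of which passed.

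**Figure D4:**
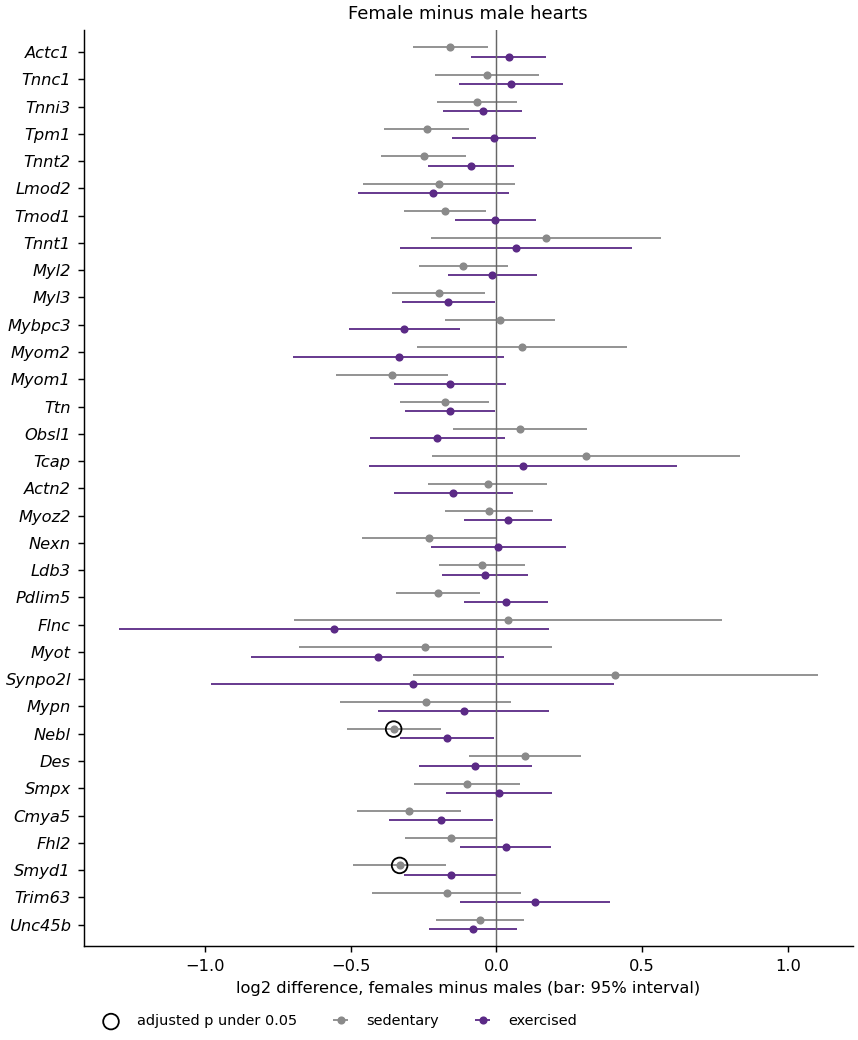
Log2 difference between female and male hearts for 33 members, in sedentary and in exercised mice, by role as in the plot of exercise effects; points are estimates, bars 95% intervals, and rings mark an adjusted p under 0.05. Of 33 members 25 lie below 0 in sedentary and 23 in exercised hearts (19 and 18 when scaled by total counts), and Nebl and Smyd1 carry rings in sedentary hearts.

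Spread within a group was small for most members, with a median within-group SD of 0.11 on the log2 scale, against 0.17 over all genes. It ran from 0.06 for Actc1 and Tmod1 to 0.31 for Tcap, 0.38 for Synpo2l and 0.40 for Flnc. Flnc, an actin crosslinker of the Z-disc, reached 869 CPM in male exercised 2, against 318 to 450 CPM elsewhere. Synpo2l, a synaptopodin-like Z-disc protein, was at 290.4 CPM in that library and at 123 to 205 CPM in the others. Mypn, myopalladin, which links nebulette and alpha-actinin, at 190.3 CPM, Des, desmin, at 2575 CPM, Actn2, alpha-actinin, at 2619 CPM, and Ldb3, a PDZ and LIM protein of the Z-disc, at 965 CPM, were also highest there, as was Myom2 at 2137 CPM. In all 13 of the 34 members were highest in that library, among them Mybpc3, Tnnc1, Lmod2, Unc45b, Obsl1 and Myot, and 12 were highest in male sedentary 3. The share of all genes that were highest in these libraries was not determined, so these counts are not a result about the members. Male exercised 2 also had the highest sum of heart muscle markers, 53456 CPM, and the lowest of atrial markers, 3.38 CPM. The part of these markers in these values was not tested. Without male exercised 2, the exercise effect of Flnc in males turned from 0.33 ± 0.32 to -0.26 ± 0.11 and that of Synpo2l went from 0.52 ± 0.31 to 0.04 ± 0.18, and neither passed in either fit.

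After group means were removed, the 528 pairs of members had a median Pearson r of 0.20 over the 12 libraries, and 358 pairs lay above 0. The highest were Mypn with Synpo2l (0.98), Synpo2l with Flnc (0.95), Ttn with Cmya5 (0.93), and Ldb3 with Mypn (0.92). The lowest was Tnnt1 with Smyd1 (-0.90). All points share library scaling, and the Z-disc pairs also share male exercised 2 as their highest library, so these values are descriptions with no test.

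**Figure D5:**
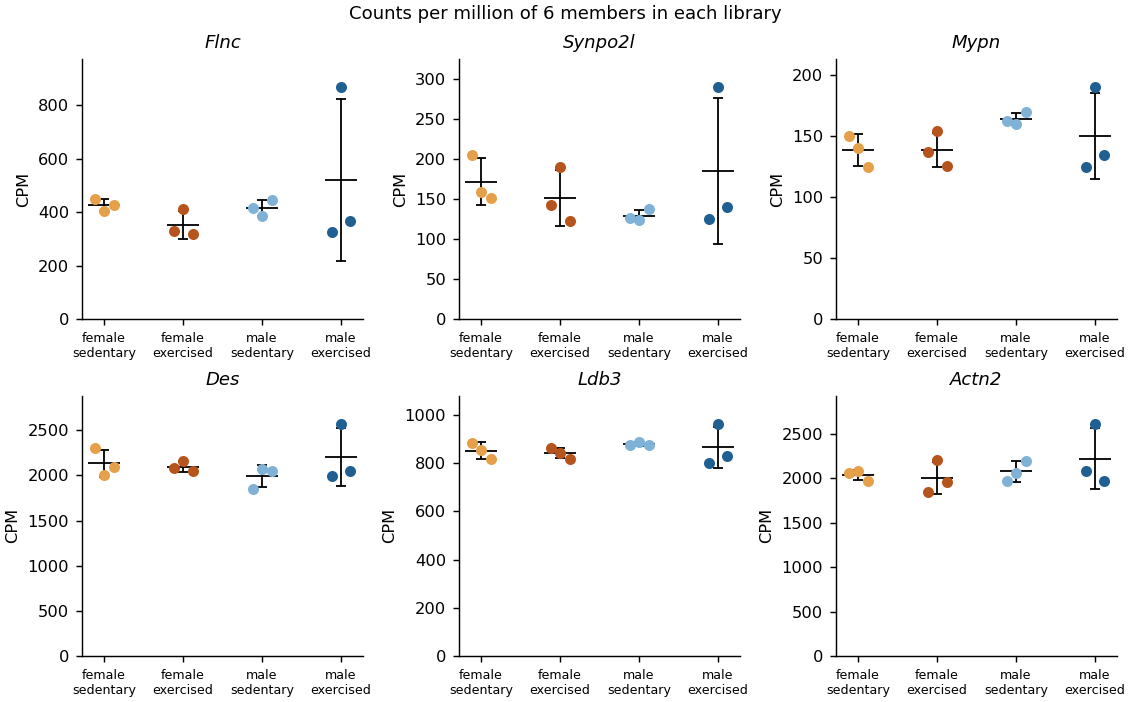
CPM of Flnc, Synpo2l, Mypn, Des, Ldb3 and Actn2 in each of 12 libraries by group; points are libraries and black bars the group mean ± SD (n = 3). In each plot 1 exercised male, number 2, is the highest library.

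Related sarcomere genes that are not members, 69 in 6 lists, were read beside them, and 65 were tested. Exercise called 0 of 65 in females and in males. In females Myh7, the slow myosin heavy chain, was at 814, 936 and 684 CPM in exercised and 1281, 1706 and 1883 CPM in sedentary hearts without overlap, at -1.001 ± 0.249 on the log2 scale (adjusted p of 1.00 by edgeR's test). Neb, nebulin, at under 10 CPM in all libraries, differed by 1.10 ± 0.35, and Ankrd1, a stretch-responsive protein bound to titin, by -0.54 ± 0.21. In males the smallest p were those of Tmod4, a skeletal tropomodulin, at -0.27 ± 0.11, the heart transcription factor Nkx2-5 at 0.36 ± 0.15 and Vcl, vinculin, at -0.20 ± 0.09.

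Between the sexes 1 of the 65 related genes passed in sedentary hearts and 2 on average, where 2.21% and 5.05% of all genes passed, and both genes were lower in females. Tmod4 was at 18.2, 19.7 and 19.4 CPM in sedentary females, 15.3, 20.1 and 19.9 in exercised females, 29.2, 27.2 and 27.8 in sedentary males and 19.9, 24.8 and 25.3 in exercised males. Sedentary males stood above all other libraries. Its difference was -0.56 ± 0.11 in sedentary hearts and -0.45 ± 0.08 on average (adjusted p of 0.0230 and 0.00688 by edgeR's test). Synpo2, a relative of Synpo2l, passed on average at -0.28 ± 0.07 (adjusted p of 0.0465). Without the 3 libraries with Myl7 above 10 CPM, Tmod4 differed by -0.54 ± 0.18 in sedentary hearts and -0.47 ± 0.11 on average and did not pass (adjusted p of 0.301 and 0.0748 by edgeR's test), while Synpo2 passed at -0.43 ± 0.08 on average (0.0338). Scaled by total counts, Tmod4 passed on average alone (-0.36 ± 0.09, adjusted p of 0.0238) and Synpo2 did not (-0.19 ± 0.08, adjusted p of 0.137). With 1 library left out in turn, Synpo2 passed only without female sedentary 1 or male exercised 3, and Tmod4 passed on average in all 12 fits but in sedentary hearts was lost without any 1 sedentary female or without male sedentary 1 or 3. By list, on average 16 of 22 other Z-disc genes, 4 of 4 other M-band genes, 8 of 13 other thin filament genes and 5 of 6 other turnover genes lay below 0, and 13, 3, 6 and 5 when scaled by total counts. Of the other myosin and thick filament genes 3 of 10 did (1 when scaled by total counts), a list that holds the atrial genes Myl7 and Myl4, and of the 10 muscle transcription factors 6 did (4 when scaled by total counts). The median over the 65 was -0.07, against -0.09 for the members and 0.01 for all genes, and when scaled by total counts 0.01, against -0.004 and 0.09.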

How the data were processed

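Gene counts of 12 mouse heart libraries were used as deposited: reads were trimmed with Trimmomatic 0.36, aligned to GRCm38 with STAR 2.5.2b and counted with featureCounts of Subread 1.5.2, per the submitters' processing notes. The annotation release, the strand setting and the kit were not given in the sources used here. Genes were named with GENCODE vM21, which matched 55141 of 55401 rows. Counts were filtered with filterByExpr, which left out the mitochondrial rows, scaled with TMM and fitted in edgeR 4.0.16 (R 4.3.3; robust quasi-likelihood, group means over all 12 libraries, 8 residual degrees of freedom), with 7 contrasts and Benjamini-Hochberg adjustment over 16213 genes at 0.05. The fit was also run on simulated data with planted changes larger than the members' differences given here, so that run does not speak to differences of this size. Alternatives were DESeq2 1.42.0, limma 3.58.1 (voom), other scalings and filters, an atrial covariate, and libraries left out. Pairs of libraries of 1 group differed by 9.13 to 33.2 chi-square per degree of freedom, so none was a repeat deposit. All library values were given for called members, the 3 smallest p of each contrast, the troponin I and T genes and the 5 highest levels per length. Flnc, Synpo2l, Mypn, Des, Ldb3, Actn2, Myom2 and Myot were named after their values were seen. The members and lists were chosen with earlier results of these data known.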

Additional observations from a re-analysis of the deposited data

How the results depend on the processing

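Exercise called 0 members in females, in males, in the difference and on average under every setting run. In sedentary hearts the 2 members lower in females (of 358 genes called) became 6 with DESeq2 (of 866) and 6 at an adjusted p under 0.1 (of 816; Tnnt2, Tpm1, Myom1 and Cmya5 joined in both), 1 with the atrial covariate (Myot only, of 98), and 0 without the libraries with Myl7 above 10 CPM (of 14), 0 in a fit of only the groups compared (of 256) and 0 when scaled by total counts (of 477). In the covariate fit, without those libraries and in the fit of the groups compared, Smyd1 stood at -0.41, -0.44 and -0.33 and Nebl at -0.30, -0.29 and -0.35, against -0.33 and -0.35 in the main test. In exercised hearts the 0 (of 26) became 1, Myot, with the atrial covariate (of 20) and 1, Myot, without those libraries (of 24). On average the 4 (of 818) became 7 with DESeq2 (of 1371) and 7 at 0.1 (of 1529; Tnnt2, Myl3 and Ttn joined), 2 with the atrial covariate (Myot and Smyd1, of 193), 1 without those libraries (Myot, of 119) and 0 when scaled by total counts (of 1131). Without a filter, Myom1 was lost on average. Myot was singled out after its values were seen, so its passes in these fits are no separate support. With each library left out in turn, the counts ran from 0 to 3 in sedentary hearts, stayed at 0 in exercised hearts, and ran from 2 to 4 on average, and members below 0 from 22 to 27, 20 to 26 and 24 to 31. Signs of single members were followed only for called members, those of smallest p in each contrast and some chosen after their values were seen. Among these values 7 changed sign under these fits, none of them called. Sign changes of the other members were not listed. Tnnt1 ranged from -0.29 to 0.0155 for exercise in females (above 0 without female sedentary 3) and from -0.23 to 0.0616 for exercise in males (above 0 without male exercised 1, at 0.05, or male sedentary 2). Without male exercised 2, Flnc went to -0.26 for exercise in males and to 0.0274 for females against males in exercised hearts, and Synpo2l to 0.19 there. Their highest and lowest other values were 0.57, -0.80 and -0.50, each without male exercised 1. Cmya5 ranged from -0.00668 (without male sedentary 3) to 0.17 for the difference of the exercise effects. The cause of these changes was not tested. No paired analysis was run, since the labels give no pairing of libraries between groups.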
